A study of Mus musculus with 12 samples.

Results

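The genes described here encode receptors of the activin and bone morphogenetic protein (BMP) branches of the TGF-beta superfamily, taken by name from the gene table. The named set held 8 of the 5545 genes analysed: the type I receptors Acvr1, Acvr1b, Acvrl1 and Bmpr1a, the type II receptors Acvr2a, Acvr2b and Bmpr2, and the pseudoreceptor Bambi. Acvr1c and Bmpr1b, further type I receptor genes, were in the table but outside this set and were examined with the rest of the pathway. RNA was sequenced from natural killer (NK) cells and type 1 innate lymphoid cells (ILC1) sorted from the livers of C57BL/6 mice. Mice had been weaned onto RM1 chow (lean) or onto a palatable obesogenic diet with condensed milk (obese) and kept on it for 12 weeks, and the study used female C57BL/6J animals. NK cells were sorted as Lin- NK1.1+ CD49a- CD49b+ and ILC1 as Lin- NK1.1+ CD49a+ CD49b-, from the same 6 livers, which gave 12 libraries in 4 groups of 3. Within a diet the numbers 25, 26 and 27 name a mouse, so that each mouse gave an NK and an ILC1 library. Across diets the same number names different animals. The model was diet alone, with no genetic change in any group.

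Ligands of this family bring together a pair of type II and a pair of type I receptors at the cell surface. The type II kinase then phosphorylates the type I kinase, which passes the signal to SMAD transcription factors. ACVR1B carries activin signals to SMAD2 and SMAD3, whereas ACVR1, ACVRL1 and BMPR1A carry BMP-type signals to SMAD1, SMAD5 and SMAD8. BAMBI resembles a type I receptor without a kinase domain and dampens signalling. Activin and TGF-beta are known to push NK cells towards ILC1-like features, which is the setting in which these receptors are of interest in liver.

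Each library held between 1666637 and 2826766 counts over the genes analysed, and detected between 1948 and 3292 of them. Genes that follow Cyp26b1 in alphabetical order were not analysed here, so totals cover these genes only. The sorted labels were borne out by the summed shares of their markers. The NK cell genes Cma1 and Cx3cr1 summed to 0.426 to 0.579% of counts in lean NK, 0.321 to 0.389% in obese NK and 0.00541 to 0.105% in ILC1 libraries. The ILC1 genes Cxcr6 and Cd200r1 summed to 1.11 to 1.43% in lean ILC1, 0.222 to 1.16% in obese ILC1 and 0.00337 to 0.0391% in NK libraries. In obese ILC1 replicate 26 the NK cell genes disagreed. There Cx3cr1 had 3111 normalized counts, against 887 to 2362 in NK libraries, and Cma1 had 274, against 5096 to 9490. Of all libraries, 3 stood apart. Obese ILC1 replicate 26 held 9.4% of its counts in the hepatocyte list, against at most 0.0607% elsewhere, and 1.07% in the list shared by NK cells and ILC1, against at least 6.76% elsewhere. Lean NK replicate 27 and obese ILC1 replicate 25 detected the fewest genes, 1948 and 2014, and 27.4% and 27.5% of the 2606 genes tested were at 0 in them, against 1.57 to 10.8% in the others. Where they were kept, results without these libraries are given below. For Bmpr1a they are given only between diets in ILC1.

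All receptor genes were of low abundance, and they fell into 3 kinds. Bambi and Acvr1b were detected in all 12 libraries, and Acvr2a in 11. Bmpr2 was detected in 9 and Bmpr1a in 6. Acvr1 was found in 5 libraries, Acvrl1 in 3 and Acvr2b in none. The filter on low counts was passed by 5 of the 8 (Bambi, Acvr1b, Acvr2a, Bmpr2 and Bmpr1a), and the other 3 were not tested in the model of all libraries. Between 2 and 7 of the 8 were detected in a library, with the fewest in obese ILC1 replicate 25 and the most in obese ILC1 replicate 26 and obese NK replicate 26. In bulk RNA, fewer cells expressing a receptor and less RNA per cell cannot be told apart.

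**Figure D1:**
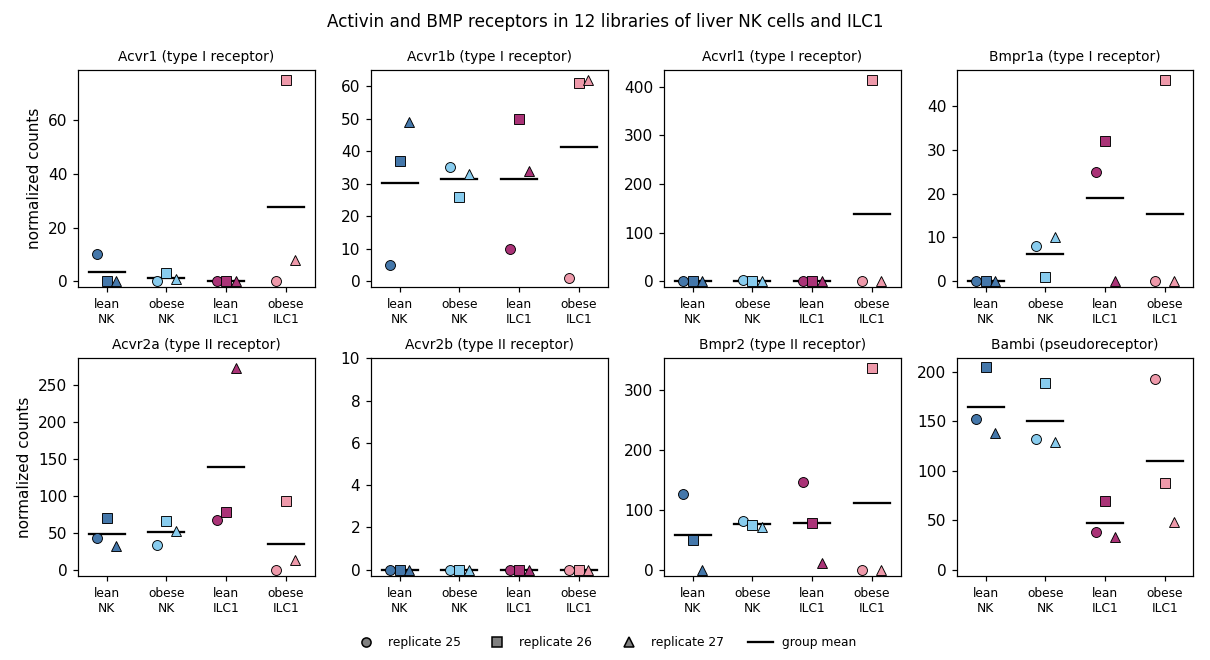
Normalized counts of the 8 receptor genes (vertical axis, linear, its own range for each gene) in each of the 12 libraries, by group; circles, squares and triangles are replicates 25, 26 and 27, and the black line is the group mean. Bambi lay between 129 and 205 in all 6 NK libraries, Acvrl1 stood at 414 in 1 obese ILC1 library and at most 2 elsewhere, and Acvr2b was at 0 in every library.

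Bambi, the pseudoreceptor, was the receptor gene with the most counts, 1549 in all, and the one with the lowest adjusted p between the sorted populations. The gene lies at chr18:3507923-3516404 on the plus strand (mm10). Counts normalized by the authors were 152, 205 and 138 in lean NK cells of mice 25, 26 and 27, and 132, 189 and 129 in obese NK cells. In ILC1 they were 38, 70 and 33 in lean mice and 193, 88 and 48 in obese mice. The lean ILC1 libraries all lay below the lean NK libraries with no overlap, whereas among obese mice the ILC1 library of mouse 25 was above all 3 NK libraries. Group means were 165 ± 35.3 (SD, n = 3) in lean NK, 150 ± 33.8 in obese NK, 47 ± 20.1 in lean ILC1 and 110 ± 74.9 in obese ILC1.

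Whether Bambi differs between ILC1 and NK cells was tested over both diets and within each. The log2 fold change, ILC1 over NK cells, was -1.15 (SE 0.472) as the mean of both diets. Its unadjusted p was 0.033 and its adjusted p 0.21 in the edgeR quasi-likelihood fit, adjusted by Benjamini and Hochberg's method for all 2606 genes tested, so that it was not called. In lean mice it was -1.79 (SE 0.679, edgeR adjusted p = 0.259) and in obese mice -0.51 (SE 0.66, edgeR adjusted p = 0.886). Within mice, Bambi was lower in ILC1 than in NK cells in 5 of 6, the exception being obese mouse 25. As a share of library counts, an exact permutation test of 6 libraries against 6, two-sided, gave p = 0.0108, and the exact test that flipped the sign of the difference within each mouse gave p = 0.0625. The smallest values that these tests can give are 0.00217 and 0.0313. In all, 20 exact tests were run on the receptor genes and 1 gave an unadjusted p under 0.05. Those between diets compared 3 libraries with 3. Their smallest possible p is 0.1, so they could not fall under 0.05. A share of library counts depends on all other RNA in the library. In obese ILC1 replicate 26, the hepatocyte list held 9.4% of counts and the list shared by NK cells and ILC1 held 1.07%. The part of this library's other RNA in these p-values was not tested. The lean groups did not overlap, which was so of 24.9% of the genes tested.

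**Figure D2:**
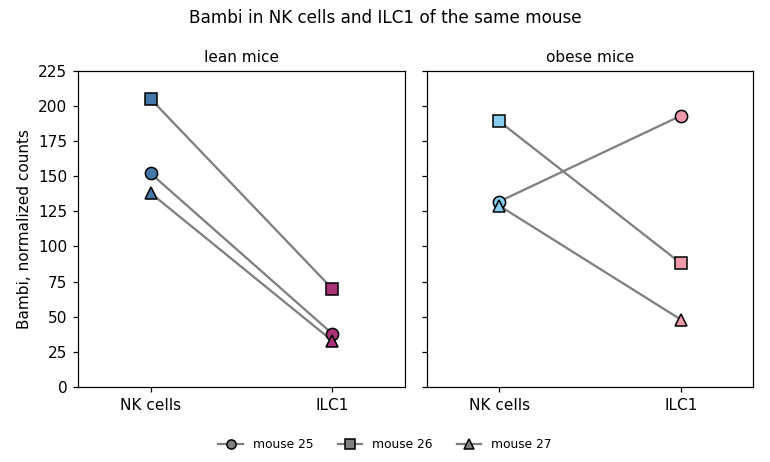
Bambi, in normalized counts (vertical axis, linear from 0), in NK cells and ILC1 of the same mouse, with a grey line joining both libraries of a mouse; lean mice are on the left and obese mice on the right. The line falls in 5 of 6 mice and rises from 132 to 193 in obese mouse 25.

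The call on Bambi depended on the test and on 1 library. DESeq2 called it lower in ILC1, at -1.13 (SE 0.392, DESeq2 adjusted p = 0.0361) over both diets and -1.80 (SE 0.558, DESeq2 adjusted p = 0.0232) in lean mice. Without obese ILC1 replicate 25 the edgeR value over both diets was -1.51 with an adjusted p of 0.0467. Without all 3 libraries that stood apart, a choice made after seeing the data, it was -1.79 (SE 0.4, edgeR adjusted p = 0.0116) over both diets and -1.92 (SE 0.447, edgeR adjusted p = 0.0184) in lean mice. That choice leaves 1 obese ILC1 library, which is assumed to vary like the other groups. In obese ILC1 replicate 25, the Kupffer cell list took 0.0953% of counts and the NK cell list 0.0398%. Lean ILC1 libraries held 0.0092 to 0.0237% and 0.00541 to 0.0342%. Obese ILC1 replicate 27, with Bambi at 48, held 0.115% and 0.026%. Replicate 26, with Bambi at 88, held 1.45% and 0.105%. The part of these lists in the Bambi values was not tested.

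Diet did not move Bambi past the threshold in either population. In NK cells the obese and lean groups overlapped and the log2 fold change, obese over lean, was -0.10 (SE 0.657, edgeR adjusted p = 1). In ILC1 it was 1.18 (SE 0.669, edgeR adjusted p = 0.571), falling to 0.45 without obese ILC1 replicate 25 and to 0.04 without the 3 libraries that stood apart. The ranges overlapped, since obese ILC1 replicate 27, at 48 normalized counts, lay below lean ILC1 replicate 26, at 70. The difference between the diet effects in ILC1 and in NK cells was 1.28 (SE 0.935, edgeR adjusted p = 0.978), and 0.56 and 0.25 under the same omissions.

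Among the type II receptors, Acvr2a binds activins and some BMPs and was found in every library but 1. It lies at chr2:48814109-48903269 on the plus strand. Normalized counts were 44, 71 and 33 in lean NK cells and 34, 67 and 53 in obese NK cells. They were 68, 78 and 273 in lean ILC1 and 0, 93 and 13 in obese ILC1. The NK groups lay on the same range, lean ILC1 replicate 27 was far above all others, and obese ILC1 ran from none to above 2 of the 3 lean ILC1 libraries. The log2 fold change in ILC1, obese over lean, was -2.07 (SE 1.38, edgeR adjusted p = 0.65). It was -1.16 without lean ILC1 replicate 27 and -4.37 without obese ILC1 replicate 26. In NK cells it was 0.11 (SE 1.32, edgeR adjusted p = 1). Between ILC1 and NK cells over both diets it was 0.42 (SE 0.941, edgeR adjusted p = 0.908), and it was -0.75 without obese ILC1 replicate 26. The exons of Acvr2a share 446 bases with those of Orc4 on the opposite strand. Whether the counting used strand is not given in the sources used here, so reads from this stretch cannot be told apart.

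Bmpr2, the type II receptor for BMPs, lies at chr1:59763400-59879014 on the plus strand. Its normalized counts were 126, 50 and 0 in lean NK cells and 82, 75 and 71 in obese NK cells. They were 146, 78 and 12 in lean ILC1 and 0, 335 and 0 in obese ILC1. The obese NK libraries agreed closely, at 76 ± 5.57 (SD, n = 3), while the other groups ran from 0 or near 0 to 126 or more. Of the 3 libraries in which Bmpr2 was at 0, lean NK replicate 27 and obese ILC1 replicate 25 were those with the fewest detected genes. The third, obese ILC1 replicate 27, had 5.07% of tested genes at 0. The highest value, 335, was in obese ILC1 replicate 26. That library held 9.4% of counts in the hepatocyte list and 0.812% in the endothelial list. The part of these lists in the Bmpr2 counts was not tested.

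No comparison of Bmpr2 passed the threshold with all libraries, and its direction turned with single libraries and with the replicate block. The log2 fold change, ILC1 over NK cells, was 0.43 (SE 1.51, edgeR adjusted p = 0.943) over both diets. Obese over lean, it was 0.38 (SE 2.14, edgeR adjusted p = 1) in NK cells and 0.39 (SE 2.14, edgeR adjusted p = 0.972) in ILC1. These diet values turned to -0.20 without lean NK replicate 27 and to -0.12 without lean ILC1 replicate 27. With the mouse as a block, the value over both diets was -2.10. Without obese ILC1 replicate 26, both remaining obese ILC1 libraries were at 0 and the fitted value over both diets turned to -4.52 (edgeR adjusted p = 0.126). Without all 3 libraries that stood apart it was -4.84 (edgeR adjusted p = 0.0185), which was a call, resting on 1 obese ILC1 library at 0. A fitted value of a group at 0 depends on the fit and is no measure of size.

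Acvr2b, the other activin type II receptor (chr9:119402118-119434995, plus strand), had no count in any of the 12 libraries. A count of 0 allows up to 3 counts, which is 1.06 to 1.80 CPM depending on the library. For this bound, CPM was counts scaled to the library total of the genes analysed. Intervals of this kind cover counting error only. Acvr2a was the activin type II receptor detected in these cells, and Acvr2b was not detectable at this depth.

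Among the type I receptors, Acvr1b, which encodes ALK4, the activin receptor, was the most evenly detected. It lies at chr15:101174067-101213684 on the plus strand. Normalized counts were 5, 37 and 49 in lean NK, 35, 26 and 33 in obese NK, 10, 50 and 34 in lean ILC1, and 1, 61 and 62 in obese ILC1. The groups overlapped throughout, with means between 30.3 and 41.3. The log2 fold change, ILC1 over NK cells, was 0.22 (SE 0.903, edgeR adjusted p = 0.954). Obese over lean, it was 0.09 (SE 1.28, edgeR adjusted p = 1) in NK cells and 0.35 (SE 1.28, edgeR adjusted p = 0.964) in ILC1. With standard errors of this size, the data do not tell an even level from a change of 2-fold in either direction.

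Bmpr1a, which encodes the BMP receptor ALK3, lies at chr14:34410734-34503341 on the minus strand. It had no count in any lean NK library, normalized counts of 8, 1 and 10 in obese NK, 25, 32 and 0 in lean ILC1, and 0, 46 and 0 in obese ILC1. Among the lean NK libraries, replicate 27 had 27.4% of tested genes at 0. The Bmpr1a mean in lean ILC1, 19 ± 16.8 (SD, n = 3), was at least 6.51-fold higher than in lean NK, set against 3 counts in each library. The mean in obese NK, 6.33 ± 4.73, was at least 2.17-fold higher than in lean NK, and the ranges did not overlap, although obese NK replicate 26 had a single count. The unadjusted p by edgeR was 0.0802 and the adjusted p 1. The obese NK libraries were also the deeper ones, with 2306550 to 2826766 counts against 1845970 to 2136211, and held 0.0101 to 0.0433% of counts in the hepatocyte list against 0.00203 to 0.0108%. The part of depth and of this list in the Bmpr1a values was not tested. These bounds are of group means, and 1 of the 3 lean ILC1 libraries was itself at 0. In the same fit the unadjusted p was 0.0408 between lean ILC1 and lean NK and the adjusted p was 0.356; over both diets they were 0.0479 and 0.256. In obese mice the log2 fold change, ILC1 over NK cells, was 1.17 (SE 2.25, edgeR adjusted p = 0.928). Within ILC1 the log2 fold change, obese over lean, was -0.43 (SE 2.22, edgeR adjusted p = 0.97). Both values rest on obese ILC1 replicate 26, since Bmpr1a was at 0 in replicates 25 and 27. Replicate 26 was the library with 9.4% of counts in the hepatocyte list. Leaving out 1 library at a time moved the value within ILC1 between -7.41 and 0.17. The exons of Bmpr1a share 290 bases with an antisense gene.

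Acvrl1, which encodes ALK1, a receptor known for its role in endothelial cells, lies at chr15:101128522-101145336 on the plus strand, 28.7 kilobases before Acvr1b. It had 236 counts, or 414 normalized counts, in obese ILC1 replicate 26. In the other 11 libraries it had at most 3 counts and was at 0 in 9. Its exons share 127 bases with an antisense gene, whose reads cannot be told apart from its own. The 7 endothelial marker genes were all detected in that library and took 0.812% of its counts, against 0 to 0.0141% in the others. Cdh5, which encodes the endothelial cadherin, had 470 counts there and at most 30 elsewhere, and Aqp1 had 3039 and at most 33. Albumin had 87894 counts there and 7 to 497 elsewhere, and the Kupffer cell list took 1.45% of counts, against at most 0.115%. The part of these cell types in the Acvrl1 counts was not tested. Acvr1, the BMP receptor ALK2 (chr2:58388644-58567157, minus strand), was highest in the same library, with 43 counts, and had 11 in lean NK replicate 25 and in obese ILC1 replicate 27. It was at 0 in all lean ILC1 libraries and at no more than 4 counts in obese NK cells. Neither gene passed the filter. Against lean ILC1, the obese ILC1 mean was at least 45.2-fold higher for Acvrl1 and at least 9.06-fold higher for Acvr1. Without replicate 26 both remaining obese ILC1 libraries were at 0 for Acvrl1, and the bound for Acvr1 fell to 1.31-fold. With no filter on low counts, edgeR gave an unadjusted p of 0.0281 and an adjusted p of 0.41 for Acvrl1, and 0.0365 and 0.431 for Acvr1. DESeq2 gave 0.0306 and 0.262 for Acvr1 and neither an unadjusted nor an adjusted p for Acvrl1.

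Levels can be set against each other between genes only per length of the transcript. For these levels, CPM was taken over library sizes adjusted by edgeR's TMM scaling. It therefore differs from the CPM given for Acvr2b, which used the plain library total. On CPM per kilobase of merged exons, Bambi came first in NK cells, at 16.4 ± 3.6 (SD, n = 3) in lean and 15.3 ± 3.54 in obese mice. Acvr2a was next, at 4.37 ± 1.78 and 4.70 ± 1.55, then Acvr1b at 3.42 ± 2.57 and 3.64 ± 0.538, and Bmpr2 at 1.68 ± 1.82 and 2.18 ± 0.153. In both NK groups the lowest Bambi library lay above the highest library of each other receptor. Acvr2a and Acvr1b did not differ beyond their spread. In lean ILC1 the order changed, with Acvr2a at 12.4 ± 10.1, Bambi at 4.74 ± 2.04, Acvr1b at 3.63 ± 2.32, Bmpr2 at 2.25 ± 1.92 and Bmpr1a at 1.52 ± 1.34. Neighbours in that order overlapped, except that Bambi and Acvr2a did so only from 6.18, the lowest Acvr2a library, to 7.07, the highest Bambi library. In obese ILC1, Acvrl1 was first at 15.4 ± 26.7 through 1 library, followed by Bambi at 10.8 ± 7.49 and Acvr1b at 4.64 ± 3.90.

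**Figure D3:**
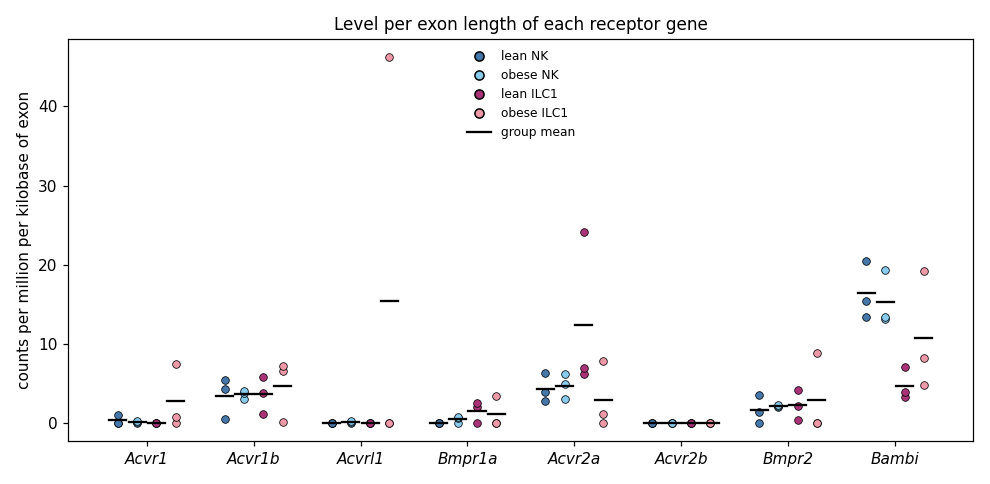
Level of each receptor gene in CPM per kilobase of merged exons (vertical axis, linear), with CPM taken over TMM-adjusted library sizes. Each point is a library, coloured by group, and black lines are group means of 3. Bambi lies at 13.2 or above in all 6 NK libraries, and the highest point, 46.2, is Acvrl1 in obese ILC1 replicate 26.

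Over all comparisons, none of the 5 receptor genes tested was called by edgeR, which took an adjusted p below 0.05 together with a change of more than 2-fold. Over both diets, 4.34% of all genes tested were called between ILC1 and NK cells. In lean mice 2.30% were, and in obese mice 0.921%. With 5 genes, a count of 0 lies close to these shares. The receptors with an unadjusted p under 0.05 were 2 of 5 over both diets and 2 of 5 in lean mice, Bambi and Bmpr1a in each case, and 0 of 5 elsewhere. Among all 2606 genes, 495 had such a p over both diets, 346 in lean and 369 in obese mice. DESeq2 called 1 receptor, Bambi, over both diets and in lean mice. Between obese and lean NK cells, between obese and lean ILC1, and for the difference of both diet effects, edgeR called 0% of all genes, with 31, 277 and 155 of 2606 at an unadjusted p under 0.05, and DESeq2 called 8, 77 and 21. Over both diets, the median log2 fold change of the 5 receptors, ILC1 over NK cells, was 0.42, beside 0.04 for all genes. Over both diets 5.68% of tested genes did not overlap between ILC1 and NK libraries and no receptor was among them. In obese mice this held for 23.1% and between diets in ILC1 for 15.2%, and again no receptor was among them. Between diets in NK cells it held for 16.2% and for 1 of the 5 receptors, Bmpr1a. These overlaps are of normalized counts, in which Acvr2a overlapped between diets in ILC1 only through obese ILC1 replicate 26.

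**Figure D4:**
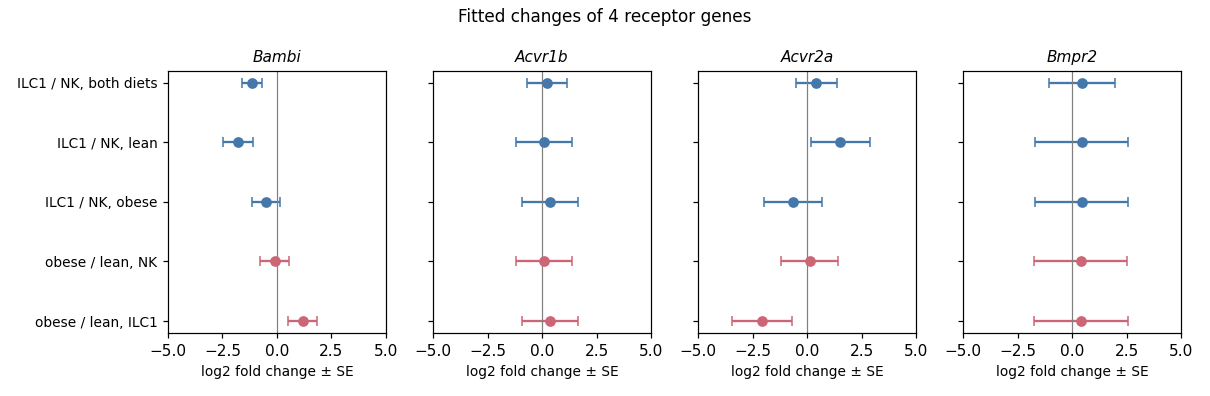
Fitted log2 fold change (horizontal axis) with its standard error for Bambi, Acvr1b, Acvr2a and Bmpr2 in 5 comparisons, ILC1 over NK cells in blue and obese over lean in red. Bambi lies furthest from 0 in lean mice, at -1.79, and Bmpr2 has the widest bars, with a standard error of 2.14 in either diet comparison.

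Of the remaining genes of the pathway, a list of 43 ligands, other receptors, antagonists, SMAD partners and response genes was examined. The table held 40 of them, 10 were at 0 in every library, 15 were tested and none was called in any of the 6 comparisons. By unadjusted and adjusted p, Bmp7 came closest. BMP7 is a ligand of BMPR2, ACVR2A, ACVR1 and BMPR1A. Its normalized counts were 154, 118 and 67 in lean ILC1, 1, 33 and 57 in obese ILC1, 4, 30 and 14 in obese NK and 2, 0 and 0 in lean NK. Lean ILC1 lay above every other library, and obese NK above lean NK. Of all tested genes, 24.9% did not overlap between lean ILC1 and lean NK, 15.2% between diets in ILC1 and 16.2% between diets in NK cells. The Bmp7 adjusted p by edgeR was 0.0587 between ILC1 and NK cells over both diets and 0.0719 in lean mice. In obese mice the log2 fold change was 0.89 (SE 1.37, edgeR adjusted p = 0.905). Obese over lean NK cells, it was 4.45 (SE 1.64, edgeR unadjusted p = 0.0203), not called. Bmp2, another BMP ligand, had 305 normalized counts in obese ILC1 replicate 26 and at most 2 in the others, the same library in which Acvrl1 was found.

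Acvr1c, which encodes ALK7, a further activin type I receptor, was singled out after its values were seen. It had normalized counts of 76, 33 and 35 in lean ILC1, 2 in obese NK replicate 27 and 0 in the other 8 libraries. Its mean in lean ILC1 of 48 ± 24.3 (SD, n = 3) was at least 16.5-fold higher than in lean NK and at least 13-fold higher than in obese ILC1, set against 3 counts in each library. These bounds cover counting error only. Lean NK replicate 27 and obese ILC1 replicate 25 had 27.4% and 27.5% of tested genes at 0. Obese ILC1 replicate 26 held 1.07% of counts in the list shared by NK cells and ILC1. Acvr1c had at least 33 counts in each lean ILC1 library and at most 3 elsewhere. It thus passed the filter on low counts through lean ILC1 alone. Bounds and tests of lean ILC1 rest on the same values by which the gene was chosen, so they cannot decide whether it differs. The edgeR adjusted p was 0.133 between lean ILC1 and lean NK and 0.281 between obese and lean ILC1. The T cell list took 0.754 to 0.892% of counts in lean ILC1, where most of it was Cd3g, 0.169 to 0.656% in obese ILC1 and 0.0135 to 0.0498% in NK cells. Cd3d had 700 to 2038 counts in lean ILC1 against 81 to 154 in lean NK, Cd3e 263 to 1026 against 12 to 34, and Cd3g 12045 to 13275 against 129 to 222. Cd4, Cd5 and Cd6 reached 189, 178 and 396 in lean ILC1 and 8, 7 and 10 in lean NK, while Cd8a and Cd8b1 were at 0 in both groups. The part of this list in Acvr1c and Bmp7 was not tested.

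**Figure D5:**
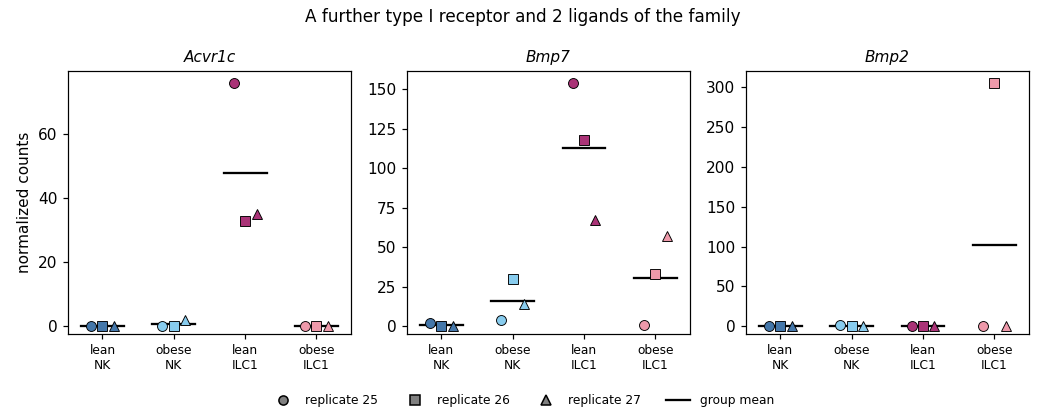
Normalized counts (vertical axis, linear, its own range for each gene) of the type I receptor gene Acvr1c and the ligand genes Bmp7 and Bmp2 in each library; symbols are replicates and black lines group means. Acvr1c lies between 33 and 76 in lean ILC1 and at no more than 2 elsewhere, and Bmp2 reaches 305 in 1 library.

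The other pathway genes with values to name also stayed short of the threshold. Crim1, which binds BMPs at the cell surface, had means of 237 ± 88.3 (SD, n = 3) in lean NK, 213 ± 65.8 in obese NK, 322 ± 99.6 in lean ILC1 and 251 ± 192 in obese ILC1. Cited2, a co-activator partner, averaged 128 ± 17.9, 118 ± 32.1, 244 ± 71.5 and 150 ± 30.3 in the same order (edgeR adjusted p = 0.48 between lean ILC1 and lean NK). Cul1, a ubiquitin ligase scaffold, averaged 1318 ± 144, 1229 ± 118, 1165 ± 139 and 852 ± 282. Appl1, Axin1, Crebbp, Ctdsp1, Ctdsp2, Cdc27 and Bmp2k had group means between 22 and 952. Among response genes, Cdkn1a, a cell cycle inhibitor, averaged 461 ± 125, 295 ± 118, 124 ± 81.5 and 461 ± 484. Its lean ILC1 libraries, 30 to 178, lay below lean NK, 362 to 601 (edgeR adjusted p = 0.357). These groups did not overlap in 24.9% of all tested genes. In obese ILC1, Cdkn1a stood at 1011 in replicate 26 and at 268 and 103 in replicates 25 and 27. Atf3, a stress-responsive factor, ran from 1 in obese ILC1 replicate 25 to 2009 in obese ILC1 replicate 26.

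Across the 12 libraries, the genes whose log2 CPM followed each tested receptor most closely were listed by Pearson's r, as a description over libraries that share depth and cell type. Bambi was followed most closely by Clk3 (r = 0.898), Chfr (0.892) and Celf2 (0.882). Acvr2a went with Abl1 (0.946), Bhlhb9 and Arid4a, and Bmpr2 with Camsap2 (0.921), 3110001I22Rik and Atp9a. Acvr1b went with 1810014B01Rik (0.898), Aldh16a1 and Ccdc28b, and Bmpr1a with Acaa1b (0.881), Arhgef25 and Anxa11. Among the receptors, the highest r was 0.656, between Bmpr1a and Bmpr2, followed by 0.605 between Acvr2a and Bmpr2. Bambi had r between -0.401 and 0.00628 with the other 4.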

How the data were processed

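RNA was extracted from cells sorted from 6 mouse livers, and each library was made with a kit for small inputs, starting at 2 ng of RNA. Per the labels, the authors used bcl2fastq 2.19, Trimmomatic 0.36.5, STAR 2.5.2b, featureCounts 1.6.0.2 and the mm10 genome. The authors deposited raw counts per gene and library and, beside them, counts divided by a size factor and rounded, named here normalized counts. These normalized counts, as deposited by the authors, were treated as a score for display, and tests used the raw counts. Columns of the authors' own fold changes and p-values were not used. The table analysed here held 5546 rows, of which 1 incomplete row was left out.

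Genes passing edgeR's filterByExpr (2606) were fitted with edgeR 4.0.16 in R 4.3.3 (TMM, glmQLFit, glmQLFTest), in 1 model of 4 groups and 12 libraries, with Benjamini-Hochberg adjustment. A gene was called where the adjusted p was below 0.05 and the change exceeded 2-fold. The standard error was taken as the absolute log2 fold change over the square root of F. The test was checked on simulated data. DESeq2 1.42.0, other filters and scalings, fewer libraries and a replicate block were alternatives. Exact permutation tests used the receptor's share of counts (numpy 2.4.6). Levels per kilobase used TMM-adjusted library sizes and merged exons of GENCODE vM21 on GRCm38, the same build as mm10.

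NK and ILC1 libraries with the same number within a diet came from 1 mouse. Deviations from the group means correlated between them at -0.0763 to 0.141. No library pair was identical. Members and lists were chosen with earlier results of these data known. Named were all receptor genes, pathway genes called or with a mean of at least 50 normalized counts in a group, and the 3 genes most like each tested receptor (log2 CPM, prior count 2).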

Additional observations from a re-analysis of the deposited data

How the results depend on the processing

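The direction of Bambi between ILC1 and NK cells stayed the same in every alternative run, between -1.79 and -0.98 over both diets and between -2.23 and -1.58 in lean mice. With the replicate block (mouse), it was -1.29 over both diets (edgeR adjusted p = 0.46), and the block made or ended no call on a receptor. Bmpr2 and Acvr2a over both diets turned to -2.10 and -0.52 with the block, and in ILC1 between diets, where the block was the number that different animals share, Acvr1b and Bmpr2 turned to -0.032 and -0.76. With the block, the counts of all genes called fell to 46 over both diets, 21 in lean and 0 in obese mice.

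Genes called, over both diets, in lean mice, in obese mice, between diets in NK cells, between diets in ILC1 and for the difference of diet effects, numbered 113, 60, 24, 0, 0 and 0. They were 222, 151, 154, 8, 77 and 21 with DESeq2, and 245, 219, 154, 5, 28 and 18 without the 3 libraries that stood apart (chosen after seeing the data). At least 10 counts in every library gave 62 over both diets and 53 in obese mice, and the compared libraries alone gave 0 in obese mice. Receptors called rose from 0 to 1 with DESeq2 over both diets and in lean mice, and without the 3 libraries to 2, 1 and 1 over both diets, in lean and in obese mice. Without those 3, Acvr2a and Bmpr2 over both diets were -0.38 and -4.84, between diets in NK cells -0.10 and -0.18, and Bmpr2 between diets in ILC1 -9.51.

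Leaving out each library in turn gave 63 to 161 genes over both diets, 29 to 43 in lean mice, 5 to 66 in obese mice, 0 to 1 between diets in NK cells, 0 to 6 in ILC1 and 0 to 1 for the difference, with 0 to 1 receptors called over both diets. Over both diets it gave -0.060 to 0.50 for Acvr1b, -0.75 to 0.71 for Acvr2a and -4.52 to 1.05 for Bmpr2. Between diets in NK cells it gave -0.42 to 0.61 for Acvr1b, -0.13 to 0.48 for Acvr2a, -0.30 to 0.089 for Bambi and -0.20 to 1.61 for Bmpr2. In ILC1 it gave -0.11 to 0.91 for Acvr1b, -4.37 to -1.16 for Acvr2a, 0.45 to 1.59 for Bambi, -7.41 to 0.17 for Bmpr1a and -9.47 to 1.19 for Bmpr2. The cause was not tested. Without division by length, 12 of 32 places in the order of levels changed, and with a prior count of 0.5, 12 of the 15 genes most like a receptor were again among the first 3. Low counts limit all receptors but Bambi.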
